A study of Homo sapiens with 2 samples.

Results

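The PDGF, MET, AXL and FGF signalling genes were examined in U87 glioblastoma cells. They are 10 genes, chosen by name as the receptor tyrosine kinases of glioblastoma outside the ERBB family together with their ligands. The receptors are PDGFRA, PDGFRB, MET, AXL and FGFR1, and the ligands are PDGFA, PDGFB, HGF, GAS6 and FGF2. All 10 were found among the 41582 gene symbols to which the transcripts of the table could be matched. U87 is an established human glioblastoma cell line, labelled WT for genotype and grown in RPMI with serum. One group received CCA-1.1, a curcumin analog, and the other its vehicle DMSO, each for 72 h, and the dose used for sequencing is not given in the sources used here. Each condition had 1 library, so no difference has a replicate check and no test was made. The values are in TPM, a measure of transcript abundance divided by transcript length and by the library total, so levels can be set side by side between genes, but the read depth behind them is unknown.

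A receptor tyrosine kinase spans the cell membrane, pairs up when its ligand binds, and phosphorylates itself and its adaptors on tyrosine, which feeds the RAS-ERK and PI3K-AKT pathways. PDGF chains form dimers, of which the A chain binds PDGFRA and the B chain binds both PDGF receptors. HGF is the only known high-affinity ligand of MET, GAS6 bridges AXL to phosphatidylserine on membranes, and FGF2 binds FGFR1 together with heparan sulphate chains. In glioblastoma these receptors are known as drivers of growth and invasion beside EGFR, and as routes by which cells bypass its inhibition.

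The cells were checked against marker genes first. Most markers of a mesenchymal glioblastoma line were abundant, with VIM at 3217 TPM under DMSO and 3106 TPM under CCA-1.1 and CHI3L1 at 4947 and 4397 TPM. NES, of the same list, was only at 7.53 TPM under DMSO and 7.62 TPM under CCA-1.1. The glial marker GFAP was at 0.41 TPM under DMSO and 0.57 TPM under CCA-1.1, and S100B and SOX10 were listed at 0 in both libraries, but OLIG2 was at 5.64 and 7.03 TPM and SOX2 at 1.87 and 1.45 TPM. Markers of leukocytes, endothelium and epithelium were low, with PTPRC at 0.09 and 0.07 TPM, PECAM1 at 3.41 and 2.71 TPM, and EPCAM at 0.18 and 0.16 TPM, but CD68 was at 494.2 TPM under DMSO and 397.1 TPM under CCA-1.1. Of the neuronal markers SNAP25 was at 22.03 and 16.80 TPM, SYT1 at 11.38 and 11.54 TPM and RBFOX3 at 1.83 and 2.45 TPM, and of the mural cell and fibroblast markers RGS5 was at 2.54 and 4.22 TPM and COL1A1 at 15.86 and 19.79 TPM. Their part in the values of the 10 genes was not tested.

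The 10 genes split into an abundant and a scarce group, and this split was the same in both libraries. MET, FGF2, GAS6, FGFR1, PDGFRB and AXL were each between 29.5 and 51.3 TPM. PDGFA and HGF were between 2.50 and 6.44 TPM, and PDGFRA and PDGFB were below 1 TPM. The order of levels, from MET at the top through FGF2, GAS6, FGFR1, PDGFRB, AXL, PDGFA, HGF and PDGFRA to PDGFB, was identical under both conditions. With 1 library per condition, no spread is known against which neighbours in this order could be separated. Among the 19938 protein-coding genes, MET was higher than 85.2% under DMSO and 83.9% under CCA-1.1, whereas PDGFB was higher than 34.2% in both.

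**Figure D1:**
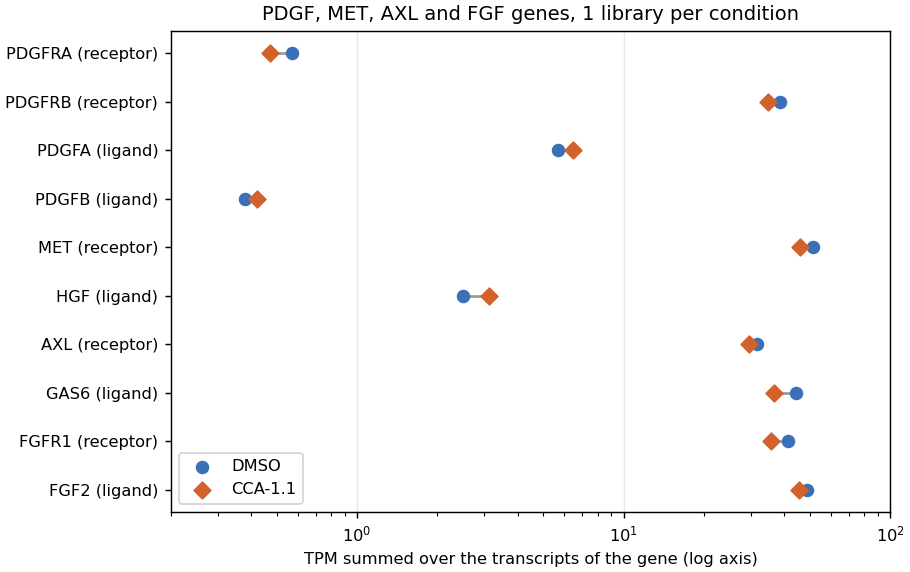
TPM summed over the transcripts of each gene, on a log axis, in the DMSO library (circles) and the CCA-1.1 library (diamonds), 1 library each. The 6 abundant genes lie near 30 to 51 TPM with the diamond left of the circle, and PDGFA, PDGFB and HGF have the diamond on the right.

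None of the 10 genes was past a 2-fold difference. The measure used for this is the log2 ratio of CCA-1.1 to DMSO after adding 1 TPM to each value, which makes changes at low TPM look smaller than they are. The count of 0 of 10 past 2-fold stands beside 1.53% of all genes and 0.341% of protein-coding genes averaging 1 TPM or more. The 6 abundant genes were all lower in the CCA-1.1 library, from -0.27 for GAS6 to -0.10 for AXL, with a median of -0.15. Over the 7906 protein-coding genes that averaged 10 TPM or more, 48.8% were lower, the median was 0.0039, and the 5th and 95th percentiles were -0.29 and 0.31. Every one of the 6 values therefore lay inside the range that holds the central part of all genes at this level. Of the 4 scarce genes, 3 were higher and 1 was lower under CCA-1.1, between -0.09 and 0.24. Protein-coding genes at low levels leaned higher too: 40.7% were lower at 1 to 10 TPM and 40.8% above 0 and below 1 TPM.

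**Figure D2:**
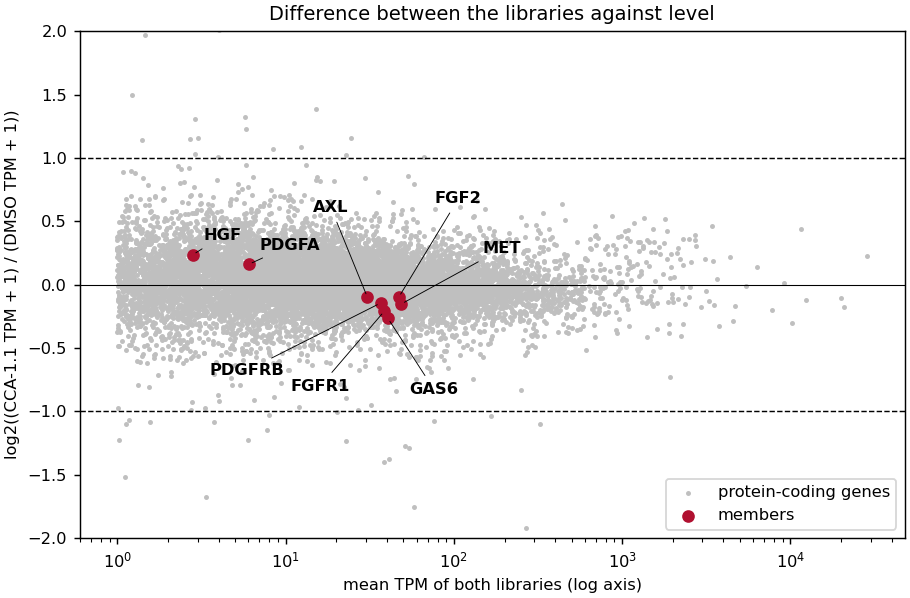
Difference on the log2(TPM + 1) scale against the mean TPM of both libraries (log axis) for 12037 protein-coding genes (grey; 4 more lie outside the axis) and for the 8 members averaging 1 TPM or more (red). Dashed lines mark 2-fold, and the 8 members lie between -0.27 and 0.24, within the grey band.

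AXL and MET each have known forms that differ by a short stretch inside the coding sequence, and the stretches are shown here because the levels of both receptors are given by form below. From background knowledge, NM_021913.5 of AXL and NM_001127500.3 of MET are RefSeq forms that include the stretch, and NM_001699.6 and NM_000245.4 are forms without it. This match was not checked on RefSeq sequences. The sequences were read from the GENCODE coding transcripts on GRCh37, 5′ to 3′ on the plus strand, with the stretch in capitals and 24 bases of spliced sequence in lower case on each side.
AXL: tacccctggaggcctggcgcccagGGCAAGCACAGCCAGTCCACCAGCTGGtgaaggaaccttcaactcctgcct
MET: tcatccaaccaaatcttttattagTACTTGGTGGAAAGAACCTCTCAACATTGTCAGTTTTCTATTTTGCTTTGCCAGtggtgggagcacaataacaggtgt
The AXL stretch is the whole of exon 10, at chr19:41745599-41745625 of GRCh37, with 27 bases or 9 codons in frame. The MET stretch is the start of exon 10, at chr7:116399391-116399444 of GRCh37, with 54 bases or 18 codons in frame. Both lie in the part of the protein outside the membrane. All gene positions given elsewhere are those of GRCh38.p14.

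PDGFRB, the receptor that marks pericytes and fibroblasts in normal tissue, was the abundant PDGF receptor of these cells. The gene (chr5:150113839-150155845) was at 38.58 TPM under DMSO and 34.76 TPM under CCA-1.1, a difference of -0.15. PDGFRA, a marker of oligodendrocyte progenitors and often amplified in glioblastoma (chr4:54229293-54298245), was at 0.57 TPM under DMSO and 0.47 TPM under CCA-1.1, a difference of -0.09. PDGFRB thus exceeded PDGFRA 67.7 times under DMSO and 74.0 times under CCA-1.1. Of the 10 transcripts listed for PDGFRA, 5 were at 0 in both libraries and the others were each at or below 0.22 TPM. Within PDGFRB, NM_002609.4 held 75.1% of the TPM of the gene under DMSO and 81.9% under CCA-1.1, with 28.99 and 28.48 TPM. NM_001355017.2 was at 5.54 TPM under DMSO and 2.92 TPM under CCA-1.1, and NM_001355016.2 was at 3.67 and 3.01 TPM. Of the difference of -3.82 TPM in the PDGFRB sum, -2.62 TPM came from NM_001355017.2 and -0.51 TPM from the leading transcript.

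The PDGF ligands were scarce. PDGFA (chr7:497258-520700), which encodes the A chain, was at 5.66 TPM under DMSO and 6.44 TPM under CCA-1.1, a difference of 0.16. PDGFB (chr22:39223359-39244982), which encodes the B chain, was at 0.38 and 0.42 TPM, a difference of 0.04. The ratio of PDGFB to PDGFRB was 0.0098 under DMSO and 0.0121 under CCA-1.1. The B chain, a ligand of the abundant receptor, was therefore scarce beside it in both libraries. The direction of PDGFA depended on which transcripts were counted, since the sum over curated transcripts alone gave -0.13.

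The transcripts of PDGFA took different shares in the libraries. Of its 17 listed transcripts, 7 were at 0 in both libraries. NM_001395364.1 was at 2.69 TPM under DMSO and 1.08 TPM under CCA-1.1, which is 47.5% and 16.8% of the gene. NM_033023.5, the short form that lacks the retention motif for heparan sulphate, was at 1.39 TPM in both libraries. NM_002607.6, the long form with that motif, was at 0 and 0.02 TPM. XM_011515419.4 was at 0 TPM under DMSO and 1.1 TPM under CCA-1.1, and with a difference of 1.07 it was 1 of the 2 transcripts past 2-fold. Kallisto divides reads shared by transcripts of a gene by estimation, so at a few TPM per gene these shares are uncertain.

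MET, the HGF receptor, had the highest level of the 10 genes in both libraries. The gene (chr7:116672196-116798377) was at 51.31 TPM under DMSO and 46.02 TPM under CCA-1.1, a difference of -0.15. NM_000245.4, a form without the 54 bases shown above, held 89.3% of the gene under DMSO and 84.1% under CCA-1.1, with 45.84 and 38.70 TPM. NM_001127500.3, which includes them, was at 0.73 and 1.16 TPM, or 1.42% and 2.52% of the gene. NM_001324401.3 was at 1.55 TPM under DMSO and 2.92 TPM under CCA-1.1. NM_001324402.2 was at 1.45 and 1.18 TPM and XM_047420400.1 at 1.60 and 0.75 TPM, both lower under CCA-1.1. XM_011516223.2, a predicted transcript, was at 0.14 and 1.31 TPM, and its difference of 1.02 made it the other transcript past 2-fold. The leading transcript differed by -7.14 TPM and the whole gene by -5.29 TPM, so the other transcripts together were higher under CCA-1.1.

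HGF, which is made mainly by mesenchymal cells and acts on MET, was scarce. The gene (chr7:81699010-81770047) was at 2.50 TPM under DMSO and 3.12 TPM under CCA-1.1, a difference of 0.24 and the highest among the 10 genes. This value lies inside the 5th to 95th percentile range of the 4135 protein-coding genes at 1 to 10 TPM, -0.37 to 0.44. NM_000601.6, which encodes full-length HGF, was at 0.52 TPM under DMSO and 0.13 TPM under CCA-1.1. NM_001010933.3 was at 0.59 and 1.69 TPM and held 54.2% of the gene in the CCA-1.1 library. Of the other curated transcripts, NM_001010932.3 was at 0.50 and 0.55 TPM, NM_001010934.3 at 0.22 and 0.62 TPM, and NM_001010931.3 at 0.67 and 0 TPM. Reads shared by these transcripts are divided by estimation, so at such levels a difference of 1 transcript is uncertain. Relative to MET, HGF was at 0.0487 under DMSO and 0.0678 under CCA-1.1.

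AXL, a receptor of the TAM family with TYRO3 and MERTK, and its ligand GAS6 were both abundant. AXL (chr19:41219223-41261766) was at 31.69 TPM under DMSO and 29.52 TPM under CCA-1.1, a difference of -0.10. Its forms kept nearly the same shares: NM_001699.6, without exon 10, held 62.6% under DMSO and 62.3% under CCA-1.1, and NM_021913.5, with exon 10, held 35.6% and 37.7%. In TPM these were 19.85 and 18.40 for the former and 11.29 and 11.12 for the latter. NM_001278599.2 was at 0.55 TPM under DMSO and listed at 0 under CCA-1.1. In AXL the form with the extra exon was thus a large minority in both libraries. In MET, NM_001127500.3 held 1.42% of the gene under DMSO and 2.52% under CCA-1.1. The MET transcripts besides it and NM_000245.4 were not assigned to a form.

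GAS6, a vitamin K dependent ligand, had the most negative difference of the 10 genes. The gene (chr13:113820549-113864076) was at 44.43 TPM under DMSO and 36.75 TPM under CCA-1.1, a difference of -0.27. The table lists only 1 transcript for it (NM_000820.4), so no division of reads between its own isoforms enters the value. Among those 7906 protein-coding genes of like level, 5.84% had a more negative difference. GAS6 exceeded AXL 1.40 times under DMSO and 1.24 times under CCA-1.1. The antisense RNA GAS6-AS1, which overlaps the gene, was at 4.79 TPM under DMSO and 6.03 TPM under CCA-1.1.

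FGFR1 and FGF2 were both abundant, as were AXL and GAS6. FGFR1 lies on chromosome 8 and was at 41.46 TPM under DMSO and 35.67 TPM under CCA-1.1, a difference of -0.21. Of its 13 listed transcripts, 11 were above 0 in at least 1 library. NM_015850.4 led with 18.13 TPM under DMSO and 16.42 TPM under CCA-1.1, which is 43.7% and 46.0% of the gene. NM_023110.3 was higher under CCA-1.1, with 5.09 and 6.90 TPM. NM_001174063.2 was lower, with 7.47 and 5.15 TPM, and NM_023105.3 was also lower, with 4.0 and 1.94 TPM. None of the FGFR1 transcripts passed 2-fold.

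FGF2, basic fibroblast growth factor (chr4:122826682-122898236), was at 48.74 TPM under DMSO and 45.42 TPM under CCA-1.1, a difference of -0.10. The estimates of its 2 transcripts differed in opposite directions. Kallisto divides the reads that they share by estimation, as for the other members with several transcripts. How much of the opposite directions comes from that division was not tested. NM_001361665.2 was at 27.65 TPM under DMSO and 31.85 TPM under CCA-1.1, while NM_002006.6 was at 21.09 and 13.57 TPM, a difference of -0.60. The share of NM_001361665.2 was 56.7% under DMSO and 70.1% under CCA-1.1. FGF2 exceeded FGFR1 1.18 times under DMSO and 1.27 times under CCA-1.1. NUDT6, which overlaps FGF2 on the genome, was at 7.76 and 8.90 TPM, and COMETT, a long non-coding RNA that overlaps MET, was at 6.21 and 8.82 TPM. LOC124900773, which also overlaps FGF2, was lower, at 0.65 and 0.49 TPM. PDGFA-DT and LOC105379749, which overlap PDGFA, and LOC124903220, which overlaps GAS6, were higher but each at or below 1.05 TPM. The overlaps are of whole gene spans, and whether exons overlap was not examined. No source used here says whether reads were counted by strand. Reads from any overlapping exon sequence therefore cannot be told apart from those of the members.

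Over all 10 genes the table lists 66 transcripts, of which 51 were above 0 in at least 1 library. Past 2-fold were 2 of the 66, both higher under CCA-1.1 (XM_011515419.4 of PDGFA and XM_011516223.2 of MET), beside 1.17% of all transcripts higher and 2.23% past it in either direction. In the DMSO library alone 6 transcripts were above 0, and in the CCA-1.1 library alone 9. Over all 177816 transcripts, 94066 were at 0 under DMSO and 94803 under CCA-1.1. How many of all transcripts were above 0 in 1 library alone was not counted. Of the 21 member transcripts averaging 1 TPM or more, 15 were lower and 5 were higher under CCA-1.1, and NM_033023.5 of PDGFA was equal. The shares lower and higher over all transcripts at this level were not computed. Several of the 21 come from the same gene and are not independent.

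Among the receptor tyrosine kinases examined the abundant members ranked near the top. The 38 genes examined were a selection that left out the ERBB and IGF receptors, most EPH receptors and some others. Of these 38, 11 averaged 10 TPM or more. MET, FGFR1, PDGFRB and AXL took ranks 4, 5, 6 and 8 in both libraries. Above them stood DDR2 and DDR1, receptors for collagen, and PTK7, a pseudokinase of Wnt signalling, of which DDR2 led at 70.81 TPM under DMSO and 70.66 TPM under CCA-1.1. The relatives of the members were scarce with few exceptions. The AXL relative TYRO3 was at 10.15 and 10.56 TPM and MERTK was listed at 0 in both libraries. The MET relative MST1R was at 0.04 and 0.07 TPM, and FGFR2, FGFR3 and FGFR4 were each at or below 0.10 TPM.

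The other genes of these pathways were taken from 9 lists of 151 different genes, of which 96 averaged 1 TPM or more. None of the 96 passed 2-fold; 40 were higher and 56 were lower under CCA-1.1. Over the 12041 protein-coding genes at this level, 6482 were higher and 5539 lower, with a median of 0.0168. The medians of the lists ran from -0.27 to 0.16.

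The list of the PDGF family and class III receptors also holds ligands of other class III receptors and proteases. It had 8 of 12 genes at 1 TPM or more, 2 higher and 6 lower, with a median of -0.27. Of the listed PDGF family genes and receptors themselves, only PDGFC (-0.0027) and CSF1R (0.23) were at this level. PLAU, the urokinase protease, had the most negative difference, with 90.12 TPM under DMSO and 55.61 TPM under CCA-1.1 (-0.69). FURIN, a protease that matures growth factor precursors including PDGF chains, was at 149.2 and 104.6 TPM (-0.51), and IL34, a ligand of the CSF1 receptor, was at 6.69 and 4.34 TPM (-0.53). CSF1 was the highest of the list, at 170.4 and 132.3 TPM (-0.36). PLAT was at 11.29 and 12.10 TPM and CSF1R at 1.23 and 1.62 TPM. PDGFC, another ligand of PDGFRA, was named after its value was seen and was at 9.51 and 9.49 TPM, and PDGFD, a ligand of PDGFRB, was at 0 and 0.02 TPM.

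The list of the MET and RON axis had 7 of 12 genes at 1 TPM or more, 2 higher and 5 lower, with a median of -0.11. CD44, a hyaluronan receptor that can present HGF, was at 607.4 TPM under DMSO and 472.6 TPM under CCA-1.1 (-0.36), and the tetraspanin CD82 was at 130.1 and 102.5 TPM (-0.34). MST1, the ligand of RON, was at 5.43 and 6.12 TPM, and SPINT2, an inhibitor of HGF activating proteases, was at 1.57 and 1.91 TPM. The proteases HGFAC, ST14 and HPN, which cleave HGF into its active form, were each at or below 0.14 TPM.

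The TAM list had 5 of 8 genes at 1 TPM or more, 4 higher and 1 lower, with a median of 0.05. PROS1, the other vitamin K dependent ligand of the TAM receptors, was at 145.3 TPM under DMSO and 173.4 TPM under CCA-1.1 (0.25), opposite in direction to GAS6. PROS1 exceeded GAS6 3.27 times under DMSO and 4.72 times under CCA-1.1. GGCX, the enzyme that carboxylates both ligands, was at 35.36 and 29.93 TPM (-0.23), and VKORC1, which recycles vitamin K for it, was at 190.6 and 194.4 TPM. LGALS3 was at 547.7 and 583.8 TPM.

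The list of FGF ligands other than FGF2 had 6 of 21 genes at 1 TPM or more, 5 of them higher under CCA-1.1, with a median of 0.16. Of these 6, FGF12, FGF13 and FGF14 are intracellular FGF homologous factors, not secreted ligands. FGF17 was at 2.20 TPM under DMSO and 3.97 TPM under CCA-1.1 (0.64), FGF1 at 5.78 and 7.43 TPM (0.31), FGF5 at 3.44 and 3.70 TPM and FGF12 at 1.80 and 1.70 TPM. FGF2 exceeded FGF1, the next in level, 8.43 times under DMSO and 6.11 times under CCA-1.1. The list of FGF receptors and co-receptors had 7 of 17 genes at 1 TPM or more, 1 higher and 6 lower, with a median of -0.18. SDC4, a syndecan that carries heparan sulphate, was at 23.86 and 16.15 TPM (-0.54), and SDC1 was at 44.83 and 36.28 TPM (-0.30). FGFRL1, a receptor without a kinase, was at 120.4 and 104.7 TPM, NRP1 at 174.5 and 154.3 TPM, and GPC1 was higher, at 69.36 and 79.61 TPM (0.20).

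The enzymes and core proteins of heparan sulphate had 10 of 13 genes at 1 TPM or more, 3 higher and 7 lower, with a median of -0.15. EXT2, which extends the chains, was at 45.38 TPM under DMSO and 32.58 TPM under CCA-1.1 (-0.47), and NDST2, which sulphates them, was at 10.89 and 7.75 TPM (-0.44). EXT1 was at 59.79 and 55.43 TPM and HSPG2, the core protein perlecan, at 69.76 and 61.34 TPM. HS2ST1 was at 9.94 and 10.22 TPM and HS6ST1 at 0.99 and 1.06 TPM.

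Downstream of the receptors the lists were centred near 0. The receptor-proximal adaptors and enzymes had 21 of 23 genes at 1 TPM or more, 9 higher and 12 lower, with a median of -0.0084. SHC1 was at 448.7 TPM under DMSO and 417.0 TPM under CCA-1.1, GRB2 at 154.6 and 132.7 TPM, and CRKL at 40.46 and 34.18 TPM. GAB2 was at 9.29 and 10.93 TPM and FRS3, an adaptor of FGF receptors, at 0.87 and 1.19 TPM. The list of feedback, dephosphorylation and shedding had 20 of 21 genes at 1 TPM or more, 10 higher and 10 lower, with a median of 0.0006. TIMP3, an inhibitor of sheddases, was at 321.4 and 228.4 TPM (-0.49), and ERRFI1, a feedback inhibitor of EGFR, was at 150.7 and 110.6 TPM (-0.44). SPRY2, which is induced by FGF signalling and restrains it, was at 47.54 and 54.23 TPM, and SPRED3 at 5.10 and 5.72 TPM.

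**Figure D3:**
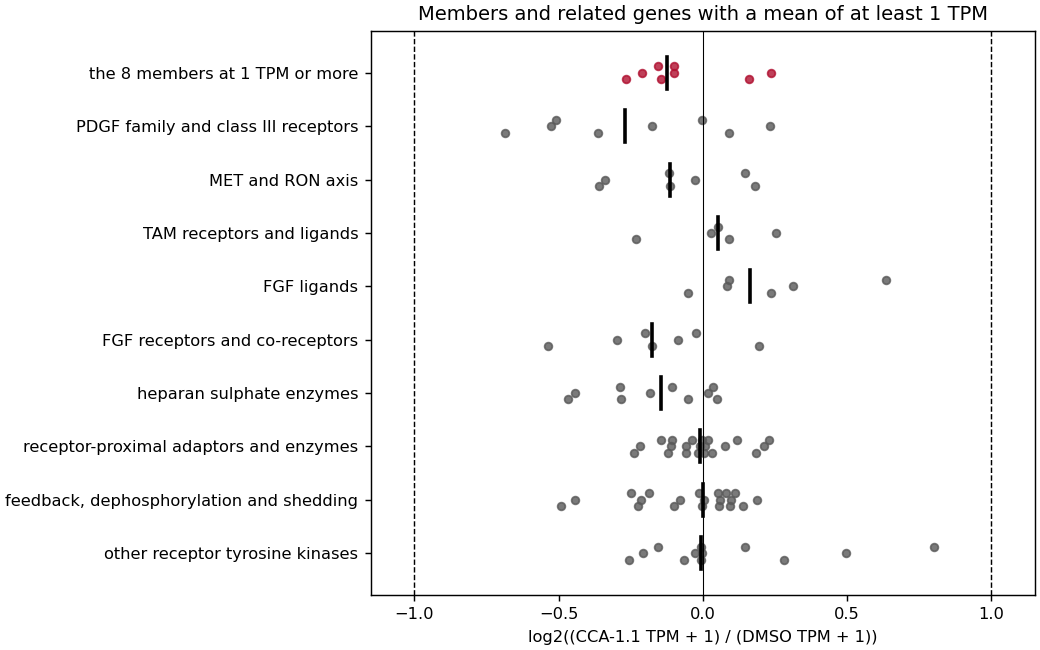
Difference on the log2(TPM + 1) scale for the 8 members and for the genes of 9 lists averaging 1 TPM or more; each point is a gene, black bars are medians and dashed lines mark 2-fold. No point passes 2-fold, and the median of the 8 members is -0.12.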

How the data were processed

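The authors enriched mRNA from U87 cells, checked the reads with FastQC 0.11.9 and MultiQC 1.1, and quantified them by Kallisto pseudo-alignment to human RefSeq transcripts of GRCh38.p14. The deposited values are TPM, rounded to 2 decimals, for 177816 transcripts and 1 library per condition; that unit was inferred from column sums of 999999.1 and 999999.8. Depth, strand setting and bias correction are not given in the sources used here, so no interval for counting error can be given. The edgeR test of the study needs counts and was not repeated.

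Transcripts were matched to symbols through RefSeq GRCh38.p14 with versions ignored (169966 matched), and TPM was summed per gene. Differences are log2((CCA-1.1 TPM + 1) / (DMSO TPM + 1)), with 2-fold as threshold and no test. The calculation was tested on simulated data. The members and lists were chosen with earlier results of these data known. All members are named. Their transcripts are covered where past 2-fold or, for each member, among the 4 highest at 1 TPM or more in either library. Of each list, the genes past 2-fold, the 2 highest and the 2 largest differences in each direction are named, at a mean of at least 1 TPM. Markers, a few relatives of the members and some lower transcripts are named besides. Alternatives were pseudocounts of 0.1 and 0.01, minimum means of 1 or 5 TPM, median-ratio scaling (factor 1.0028), curated or coding transcripts only, versioned matching and the highest transcript alone. Python 3.11.15, numpy 2.4.6, pandas 2.3.3 and matplotlib 3.10.9 were used.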

Additional observations from a re-analysis of the deposited data

How the results depend on the processing

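No paired analysis was possible because each condition had 1 library, and no library could be left out. No member passed 2-fold under any alternative. Of 78 recomputed member differences, 73 stayed within the spread (1 SD) of protein-coding genes of like level, and 4 changed sign. This is a loose check. A minimum mean only drops genes and the scaling factor was 1.0028, so those values could hardly move. The spread was 0.16 to 0.26, about the size of the member differences themselves. The values that moved were PDGFRA at -0.27 with a pseudocount of 0.01, PDGFA at -0.13 over curated transcripts, and, for the highest transcript alone, PDGFA at -0.83, HGF at 0.76 and FGF2 at 0.20. PDGFB, at -0.05 for the highest transcript alone, also changed sign. These follow from which transcripts, or how small a value, are counted.

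Transcripts of members past 2-fold numbered 17 with a pseudocount of 0.1, 25 with 0.01 and 0 with a minimum mean of 1 TPM. The like counts over all transcripts were not made, and the gene counts that follow are in another unit. All genes past 2-fold numbered 2991 (1714 higher, 1277 lower) with 0.1, 6831 (3872 and 2959) with 0.01 and 58 (26 and 32) with coding transcripts only. With a minimum mean of 5 TPM the median of the list of FGF ligands was 0.31. It then rests on FGF1. Of 27 list medians, 1 changed sign, that of the feedback list under median-ratio scaling, at -0.0028. Of 36 shares, 3 moved by 10 points or more over curated transcripts alone, all of PDGFA. The missing read depth limits every value near 0.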

Other observations

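Of the 24 genes in the list of other receptor tyrosine kinases, 12 averaged 1 TPM or more. Of these, 4 were higher and 8 lower in the CCA-1.1 library, with a median of -0.0066 and none past 2-fold. ROS1, an orphan receptor kinase known from gene fusions in glioma, had the largest positive difference of all 9 lists, with 7.88 TPM under DMSO and 14.47 TPM under CCA-1.1 (0.80). ALK was at 0.68 and 1.37 TPM (0.50). PTK7 was at 58.66 and 48.94 TPM (-0.26) and DDR1 at 57.56 and 49.78 TPM (-0.21), next to a nearly equal DDR2.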
